A study of Mus musculus with 12 samples.

Results

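The serpins, a family of protease inhibitors, were examined in the inferior vena cava (IVC) of mice with an arteriovenous fistula (AVF) and of sham-operated mice. Members were taken by symbol, as every protein-coding gene whose mouse symbol starts with Serpin and a clade letter, and 63 of the 55414 genes in the deposited table met this rule. The family was parted by clade letter into 24 genes of clade A, 28 of clade B, 3 of clade E, 2 each of clades F and I, and 1 each of clades C, D, G and H. The study joined the aorta and the IVC of C57BL/6 mice aged 10 weeks and collected the IVC 7 days after the operation. RNA-seq was available for 6 mice with a patent AVF (3 male, samples #04, #05 and #06, and 3 female, samples #07, #09 and #11) and for 6 sham-operated mice (3 male, samples #16, #17 and #18, and 3 female, samples #19, #22 and #23), with 1 library per mouse. All mice were wild type per the methods of the study, and the labels name no agent given to them. The study further parted the AVF samples into OUT, samples #05 and #09, and nAVF, the other 4. That division was made from the expression of these same samples, so p values of comparisons with OUT or nAVF do not account for it. OUT holds 1 male and 1 female only.

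Serpins inhibit proteases by a suicide mechanism, in which the target cuts the reactive centre loop of the inhibitor and is then trapped by a large change of its shape. In plasma, serpins made by the liver hold the proteases of clotting, fibrinolysis, complement and inflammation in check, whereas many tissues make further serpins of their own. Clade B serpins act mostly inside cells, and a few members, such as the collagen chaperone encoded by Serpinh1 and the hormone carriers of plasma, inhibit no protease.

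Total counts were 15177881 to 22717423 per library. Levels are stated as normalized CPM (CPM after 1 TMM scaling of the 12 libraries), and 3 counts, the least taken as detected, equalled 0.126 to 0.307 normalized CPM. These limits cover counting error only. The share of ribosomal RNA genes was 46.0% in sample #07 and 2.39% to 12.6% in the other libraries. The summed level of 6 endothelial markers was 1643 to 2782 normalized CPM over the 12 libraries and that of 5 smooth muscle markers was 2208 to 4782, so both cell types of a vein wall were present in every library. In such bulk samples fewer cells of a type and less RNA per cell cannot be told apart. Counts are expected counts, which share reads among similar genes. Every value above 3 counts of the 5 Serpina1 genes a to e, Serpina3g and Serpina3n was not whole. So were 91.7% of such values for each of Serpina3c, Serpina3k and Serpina3m. Levels of these close copies are therefore uncertain as to the single gene.

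Serpin transcripts were a mix of a few abundant and many absent genes. 13 serpins had at least 10 normalized CPM in every library, and 12 had no count in any. Per kb of exon, the order of mean levels in sham IVC started with Serping1, the inhibitor of the first complement proteases, at 156 ± 41.5 normalized CPM per kb (SD, n = 6). Serpinf1, which encodes a secreted antiangiogenic protein, followed at 68.8 ± 13.8 and Serpinh1, the chaperone of procollagen, at 59.8 ± 8.27, levels per kb that lay within their spread of each other. Serpina3n at 26.2 ± 9.37, Serpinb9 at 25.7 ± 4.79 and Serpinb6a at 25.3 ± 3.81 were also alike within their spread, above Serpinb6b at 16.5 ± 1.98. Serpinb1a, Serpini1 and Serpine2 lay between 4.83 and 5.56 normalized CPM per kb in sham, and did not differ beyond their spread. In nAVF the order per kb was Serping1 at 150.4 ± 23.2, Serpinh1 at 97.6 ± 12.5 and Serpinf1 at 75.9 ± 13.2 (SD, n = 4). In OUT, Serpina1c at 95.7 and Serpina3k at 83.0 normalized CPM per kb stood among Serpinh1 and Serpinf1, next to a mean of 0.0320 and 0.216 in sham.

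**Figure D1:**
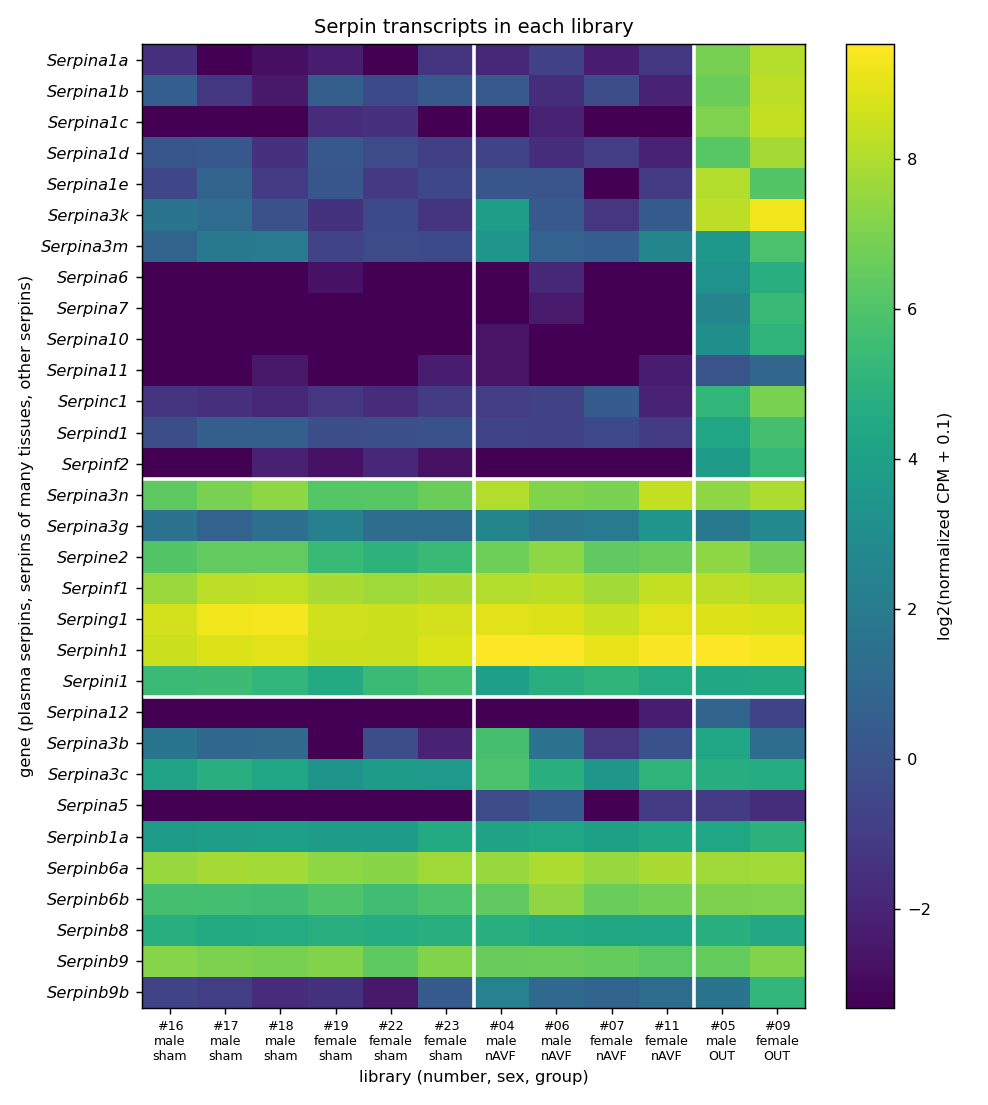
Each cell shows log2(normalized CPM + 0.1) of 1 of 31 serpins (rows, in 3 blocks of plasma serpins, serpins of many tissues and other serpins) in 1 of 12 libraries (columns, parted into sham, nAVF and OUT). Each plasma serpin is brighter in samples #05 and #09 than in sham and nAVF, least so Serpina11 and Serpina3m, whereas Serping1, Serpinf1 and Serpinh1 are bright throughout.

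All 6 AVF samples were first compared with the 6 sham samples, the main contrast of the study. Of 37 serpins tested, 17 rose and 1 fell in AVF at an adjusted p value under 0.05 by edgeR's quasi-likelihood test, where 8.63% of the 15912 genes tested rose and 5.13% fell. 16 of the 17 changed at least 2-fold, beside 3.37% of all genes. The median log2 fold change was 1.14 over the serpins and -0.01 over all genes tested. By role, 10 of the 13 tested plasma serpins, those made mainly by the liver, rose (median log2 fold change 6.86, or 6.39 with Serpina7 and Serpina10, without a count in sham, at their lower bound). Of the 8 serpins made by many tissues, 5 rose, Serpina3n and Serpinh1 among them, and 1, Serpini1, fell, with a median log2 fold change of 0.87. The intracellular Serpinb6b and Serpinb9b made up the rest. The lists by role were chosen with earlier results of these data known. 8 of the 37 serpins, 7 of them plasma serpins, passed the filter on low counts only through the OUT libraries, so the count over tested members follows in part from the filter.

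The count of 17 rested on the OUT samples. With both left out, 4 serpins rose, with Serpinb6b, Serpinb9b and Serpinh1 among them, and none fell. None of the plasma serpins that could still be tested passed. The log2 fold changes of Serpina1b, Serpina1d and Serpina1e then turned to -0.60, -1.23 and -0.28. Single samples mattered as well, with 7 serpins higher without #05, 9 without #09, 8 without #16, 9 without #19, 5 without #22 and 9 without #23. Of the plasma serpins called, all but Serpina1a lost the call without #22. Without #05, without #09 or without both, Serpina1a, Serpina1c, Serpina6, Serpinc1 and Serpinf2 no longer passed the filter on low counts and were not tested. The lower counts of calls in these settings therefore follow in part from the filter. nAVF and OUT are therefore described apart.

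In nAVF, 5 of 43 tested serpins rose against sham and none fell, beside 3.23% of 22059 genes that rose and 1.13% that fell. Serpinh1, Serpinb6b, Serpinb9b and Serpina5 were among the 5, and 17 serpins had an unadjusted p value under 0.05. The median log2 fold change over the 43 was 0.71 (0.60 with 5 genes that had no count in 1 group at their bound) and -0.04 over all genes. The DESeq2 Wald test called 8 serpins higher and the exact test of edgeR called 10. Both called Serpina3g, Serpina3i, Serpina3n and Serpine2, and the exact test also called Serpina3b. Without sample #04 the count was 3, and without #11 it was 2.

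Serpinh1 (chromosome 7, 98994220 to 99005076, minus strand) encodes HSP47, which binds procollagen in the endoplasmic reticulum. It was at 723, 743, 555 and 719 normalized CPM in #04, #06, #07 and #11, and at 745 and 664 in #05 and #09. Sham samples had 360.2 to 499 with a median of 418, so every AVF sample lay above every sham sample. The lowest AVF value was that of #07, the sample with most ribosomal RNA. The log2 fold change was 0.71 ± 0.13 (SE) in nAVF (adjusted p = 0.0113) and 0.73 ± 0.11 in all AVF (adjusted p = 0.00134), less than 2-fold. Against sham alone, OUT rose by 0.76 ± 0.15 on the log2 scale (adjusted p = 0.0207), a call lost without #05 (adjusted p = 0.190) or #09 (adjusted p = 0.106). The summed level of 5 fibroblast markers was 3631 to 5793 normalized CPM in sham, 5212 to 6677 in nAVF and 5641 and 6049 in OUT, with no marker at 0, and their part in the result was not tested.

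Serpinb6b (chromosome 13, 33073279 to 33163050), a cytosolic serpin, had 84.0, 167, 98.5 and 113 normalized CPM in nAVF and 128 and 132 in OUT. In sham it had 47.7 to 64.6 with a median of 52.5, and no AVF value reached down to the sham range. Its log2 fold change was 1.10 ± 0.17 in nAVF (adjusted p = 0.00381) and 1.28 ± 0.12 in OUT (adjusted p = 0.000233). Serpinb6a, the closest gene in name and the more abundant one, had 186 to 249 normalized CPM in nAVF and 154 to 226 in sham (log2 fold change 0.17 ± 0.14, adjusted p = 0.524). Each gene had reads shared with some other gene, with 50.0% of the values above 3 counts not whole for Serpinb6b and 83.3% for Serpinb6a. The counts do not show which genes shared them. The summed level of 6 macrophage markers was 361 to 591 normalized CPM in sham, 569 to 1069 in nAVF and 589 and 639 in OUT, with none at 0, and their part in the result was not tested.

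Serpinb9b, another cytosolic serpin of the same cluster on chromosome 13, was low in sham, at 0.0862 to 1.17 normalized CPM with a median of 0.344. In nAVF it was at 5.10, 1.99, 1.64 and 2.22 in #04, #06, #07 and #11, all above sham. #09 stood apart at 37.0, whereas #05 had 2.94. The log2 fold change was 2.61 ± 0.56 in nAVF (adjusted p = 0.0231). It lost the call without #04 (2.13, adjusted p = 0.0636) and without #11 (2.71, adjusted p = 0.0569). In OUT against sham it was called at 5.48 ± 0.81 (adjusted p = 0.00423) and not without #09 (2.74, adjusted p = 0.268). Serpinb9, which inhibits granzyme B in cytotoxic lymphocytes and their neighbours, did not follow, with 76.3 to 98.1 in nAVF and 80.8 to 145 in sham (log2 fold change -0.47 ± 0.15, adjusted p = 0.102).

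Serpina5, the protein C inhibitor, was at 0 in all sham libraries and had 12 counts in #04, 25 in #06, 0 in #07 and 8 in #11. The nAVF mean of 0.551 normalized CPM was at least 3.91-fold higher than the sham floor of 3 counts per library (adjusted p = 0.0383). OUT samples had 8 and 4 counts. The call was lost without any one of #04, #06, #11, #16, #22 and #23 (adjusted p values of 0.0553 to 0.106). It was also lost in the quasi-likelihood test with the replicate block (adjusted p = 0.117). Serpina5 did not pass the filter of 1 CPM and so was not tested with it, and DESeq2 gave it no adjusted p value. Without a count in sham, it passed the filter on low counts only through AVF.

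**Figure D2:**
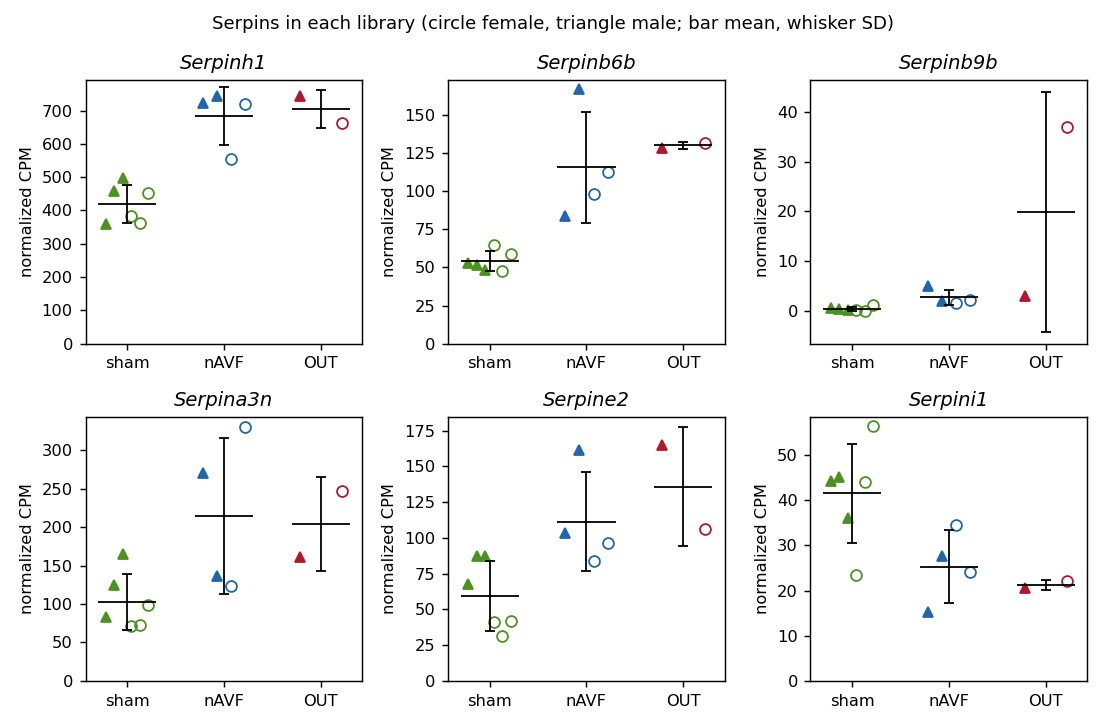
Points are normalized CPM of 6 serpins in each library by group (circles female, triangles male), with the mean as a bar and the SD as whiskers over 6 sham, 4 nAVF and 2 OUT libraries. Serpinh1, Serpinb6b and Serpinb9b have every AVF point above every sham point, and the high mean of Serpinb9b in OUT comes from 1 point at 37.0.

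Other serpins were not called in nAVF by the quasi-likelihood test, although DESeq2 and the exact test called Serpine2, Serpina3n and Serpina3g. Serpine2, or protease nexin-1, which inhibits thrombin, had 103, 162, 84.1 and 96.3 normalized CPM in nAVF and 165 and 106 in OUT, beside 31.5 to 87.6 with a median of 54.8 in sham. Its log2 fold change was 0.90 ± 0.29 in nAVF (adjusted p = 0.0994) and 1.01 ± 0.28 in all AVF (adjusted p = 0.0308). #07 lay within the sham range and the others above it. Serpina3n, a secreted inhibitor induced in inflammation, had 270.2, 137, 123 and 329.7 in nAVF and 70.9 to 165 with a median of 91.0 in sham (log2 fold change 1.07 ± 0.30, adjusted p = 0.0694 in nAVF and 0.0278 in all AVF). Samples #06 and #07 overlapped the sham range. Serpina3g was at 3.30 to 10.8 in nAVF and 1.55 to 4.79 in sham (log2 fold change 1.15 ± 0.36, adjusted p = 0.0935 in nAVF and 0.0460 in all AVF). The calls of Serpine2, Serpina3n and Serpina3g in all AVF were lost with #05 and #09 left out, at adjusted p values of 0.0788, 0.0545 and 0.0747. Single samples ended them as well: #05, #06, #16, #19, #22 or #23 for Serpine2, #04, #11, #16, #19, #22 or #23 for Serpina3n, and #04, #09, #11, #16, #17, #18, #22 or #23 for Serpina3g (adjusted p values of 0.0501 to 0.103).

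Serping1 was steady at 355 to 508 normalized CPM in nAVF and 372 to 657 in sham, with a log2 fold change of -0.05 ± 0.19. Serpinf1 had 213 to 325 and 193 to 314 (log2 fold change 0.14 ± 0.16). Serpinb1a, an inhibitor of neutrophil serine proteases, had 15.6 to 20.9 and 12.9 to 23.5 (log2 fold change 0.23 ± 0.18). Serpinb8 had 19.2 to 28.8 in nAVF and 23.1 to 27.7 in sham (log2 fold change -0.16 ± 0.13). In these 4 genes the ranges overlapped, and adjusted p values were 0.484 to 0.908.

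Serpini1, or neuroserpin, is an inhibitor of tPA made by neurons and was listed here with the serpins of many tissues. It was the only serpin that fell in all AVF (log2 fold change -0.78 ± 0.22, adjusted p = 0.0359, beside 23.5 to 56.3 normalized CPM with a median of 44.1 in sham). It was at 15.2, 27.6, 34.4 and 24.1 in #04, #06, #07 and #11 and at 20.5 and 22.0 in #05 and #09. The groups overlapped through the sham sample #19, the lowest sham value. The adjusted p value was 0.116 in nAVF, and leaving out any one of #04, #05, #09, #11, #16, #17, #22 and #23 ended the call in all AVF (adjusted p values of 0.0524 to 0.0704). 6 neuron markers, none of them at 0, summed to 280.5 to 1087 normalized CPM in sham, 119 to 638 in nAVF and 269.7 and 385 in OUT. The lowest sum in sham was also that of #19 and the lowest of all that of #04, and their part in the result was not tested.

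**Figure D3:**
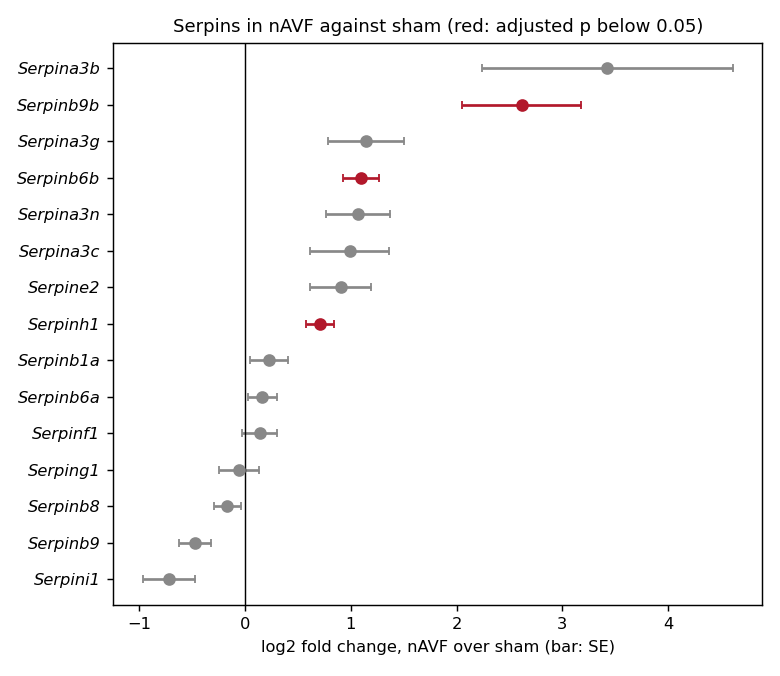
Points are log2 fold changes of 15 serpins, nAVF over sham, with SE as bars, for serpins of many tissues and other named serpins with counts in both groups. The 3 in red, Serpinb9b, Serpinb6b and Serpinh1, passed the test, and Serpina3b has a larger estimate with a wide bar.

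Genes that work with the serpins were counted from lists. Of 11 partners of Serpinh1 in collagen folding, 7 rose in nAVF and none fell, with a median log2 fold change of 0.64, where 3.23% of all genes rose. Fkbp10, a collagen prolyl isomerase, rose by a log2 fold change of 1.24 ± 0.18 (adjusted p = 0.00302), P3h1, a collagen prolyl hydroxylase, by 1.04 ± 0.17 (adjusted p = 0.00652) and Colgalt1, a collagen galactosyltransferase, by 0.78 ± 0.15 (adjusted p = 0.0133). Of 3 proteases of fibrinolysis, none passed in nAVF (median log2 fold change 0.40), and in all AVF Plat, which encodes tPA, rose by 0.61 ± 0.15 (adjusted p = 0.0197). Plg, the plasminogen gene, was also called there, with 70.2 and 232 normalized CPM in #05 and #09 and no more than 0.263 in any other library. Of 5 lysosomal cathepsins 1 rose in nAVF, Ctss, by 1.08 ± 0.26 (adjusted p = 0.0351), with a median of 0.39 over the list. None of 8 leukocyte granule proteases and none of 4 complement proteases passed in nAVF, with medians of 0.26 and 0.02. Among 10 cofactors and receptors 2 rose, the perlecan gene Hspg2 (0.71 ± 0.15, adjusted p = 0.0189) and the clearance receptor gene Lrp1 (0.71 ± 0.16, adjusted p = 0.0268), with a median of 0.21. None of the 6 tested coagulation proteases passed in nAVF, with a median of 0.63, while 7 of 8 rose in OUT against nAVF, where 1.59% of all genes rose. F11 and F12 had no count outside OUT, so they passed the filter on low counts only through it.

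OUT samples differed from nAVF in the plasma serpins. Of 43 tested serpins 13 rose in OUT and none fell, beside 1.59% of 22123 genes that rose and 0.00452% that fell. All 13 belong to the 14 plasma serpins, the other being Serpina3m, and none of the 8 serpins of many tissues passed. The lists by role were chosen with earlier results of these data known, so this split is no independent result. The median log2 fold change was 8.40 over the plasma serpins (8.11 with Serpinf2, without a count in nAVF, at its bound), -0.06 over the serpins of many tissues and -0.02 over all genes. Against sham, 19 of 43 serpins were higher in OUT and none lower, beside 3.48% and 0.451% of all genes, and these included the same 13, Serpina3m, Serpina12, Serpinb6b, Serpinb9b and Serpinh1. Both comparisons share the OUT samples. Serpina6, Serpina7, Serpina9, Serpina10, Serpina11, Serpina12 and Serpinf2 had more than 12 counts only through the OUT libraries. The counts over tested members therefore follow in part from the filter on low counts. The summed level of the 14 plasma serpins was 4.44 to 10.4 normalized CPM in sham, 4.71 to 29.5 in nAVF, and 1104 and 2194 in #05 and #09.

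The antitrypsin genes Serpina1a to Serpina1e, whose products inhibit neutrophil elastase, summed to 697 normalized CPM in #05 and 1206 in #09, and to no more than 3.74 in any other library. Serpina1c was at 133 and 334 in OUT, at 0.136 in #06 and 0 in the other nAVF samples, and at 0 to 0.259 in sham. Serpina1a had 120.2 and 275 in OUT, 0.102 to 0.452 in nAVF and 0 to 0.293 in sham (OUT against nAVF, log2 fold change 9.35 ± 0.43, adjusted p = 1.85e-05). Serpina1b and Serpina1d rose by 8.62 ± 0.62 and 8.92 ± 0.53 on the log2 scale. Serpina1e rose by 8.03 ± 0.69 but was higher in #05, at 268, than in #09, at 67.4. The 5 genes keep low values in the other libraries, and every such value above 3 counts was not whole, so their split among the copies is uncertain.

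The 4 of these genes with a match to the HNF1 half-site (GTTAAT) in the 250 bases before their start are shown, as copies that rose together, with 1 other plasma serpin that holds it. Each run is 80 bases of GRCm39 on the minus strand, with the half-site in capitals, and none overlaps an annotated exon. They occupy chr12:103829891-103829970 (Serpina1a), chr12:103871228-103871307 (Serpina1c), chr12:103739900-103739979 (Serpina1d), chr12:103923226-103923305 (Serpina1e) and chrX:137986034-137986113 (Serpina7).
Serpina1a: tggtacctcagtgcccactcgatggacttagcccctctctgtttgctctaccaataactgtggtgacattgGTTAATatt
Serpina1c: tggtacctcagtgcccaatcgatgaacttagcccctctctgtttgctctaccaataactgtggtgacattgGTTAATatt
Serpina1d: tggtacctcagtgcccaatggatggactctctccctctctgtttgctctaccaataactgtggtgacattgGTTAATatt
Serpina1e: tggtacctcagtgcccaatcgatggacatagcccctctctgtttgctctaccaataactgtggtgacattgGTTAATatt
Serpina7: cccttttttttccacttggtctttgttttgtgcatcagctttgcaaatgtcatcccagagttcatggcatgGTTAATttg
Aligned on the half-site, Serpina1a, Serpina1c and Serpina1e were the same at 78 of 80 bases in each pair, and Serpina1d matched each of them at 74. Searched on both strands, GTTAAT was in 6 of the 14 promoters of plasma serpins, in 11 of all 63 serpin promoters, in 0 of the 8 promoters of serpins made by many tissues and in 6.28% of the 21757 promoters of protein-coding genes. Of those 6 plasma serpins, 4 are the near-identical Serpina1 copies shown, so the 6 are not independent promoters. A match is a run of letters and not a bound site. Its first base was 89, 58, 9 and 55 bases before the start in Serpina1a, Serpina1c, Serpina1d and Serpina1e. The window of Serpina1b held no match to GTTAAT. Its last bases match a stretch that lies before the half-site in Serpina1d and Serpina1e, and what follows them at Serpina1b was not searched. Of the other motifs searched, the C/EBP site (TTGCNNAA) was in 4 of the 14 plasma serpin promoters and in 9.34% of all promoters. The heat shock element was in 2 of the 14 and in 6.33% of all. The HNF4 site, the CAGA box and the TATA box were in 0 of the 14.

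Inhibitors of clotting and fibrinolysis rose with them. Serpinc1, antithrombin, was at 36.8 and 123 normalized CPM in #05 and #09, 0.141 to 1.23 in nAVF and 0.169 to 0.391 in sham (OUT against nAVF, log2 fold change 7.35 ± 0.62, adjusted p = 0.000305). Serpind1, heparin cofactor II, was at 18.5 and 53.3, 0.377 to 0.615 and 0.737 to 1.39 (6.20 ± 0.43, adjusted p = 0.000106), and its nAVF values all lay below sham (log2 fold change -1.01 ± 0.37, adjusted p = 0.137). Serpinf2, the plasmin inhibitor, was at 13.8 and 38.3 in OUT, without a count in nAVF and at 0 to 0.172 in sham, so that OUT was at least 138-fold higher than the nAVF floor of 3 counts per library (adjusted p = 0.00164). Serpina10, which inhibits factor Xa with protein Z, was at 8.53 and 32.4 and had 1 count in all nAVF and sham libraries together. OUT was at least 145-fold higher than the sham floor (adjusted p = 0.00467).

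The hormone carriers Serpina6, which binds corticosteroids, and Serpina7, which binds thyroxine, had 9.73 and 27.0, and 5.73 and 42.2 normalized CPM in #05 and #09. In all other libraries they were at or under 0.181 and 0.0905. Serpina7 was at least 170.1-fold higher in OUT than the sham floor (adjusted p = 0.0126). Serpina3k, a kallikrein-binding protein, was at 302 and 612 in OUT, 14.8 in #04, 0.307 to 1.23 in the other nAVF samples and 0.263 to 2.96 in sham (OUT against nAVF, 6.69 ± 1.08, adjusted p = 0.0144). Without #04 it was called as well, but leaving out 1 of #06, #09 and #11 ended the call, with adjusted p values up to 0.0670. Serpina3m had 11.3 and 57.8 in OUT and 1.33 to 10.8 in nAVF (2.80 ± 0.79, adjusted p = 0.297), and 0.527 to 3.79 in sham (OUT against sham, 4.24 ± 0.73, adjusted p = 0.00983, and 2.66 with an adjusted p of 0.291 without #09). Serpina11 reached 0.915 and 1.83 and Serpina12, or vaspin, an adipokine, 1.73 and 0.553, both at most 0.0977 elsewhere. The call of Serpina11 in OUT against nAVF (adjusted p = 0.0452) was lost with any one AVF sample left out, and that of Serpina12 in OUT against sham (adjusted p = 0.0352) without #09, #16 or #22, and without #05 it was left with too few counts to be tested.

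8 hepatocyte markers moved with the plasma serpins. Their sum was 1.22 to 4.24 normalized CPM in sham, 2.26 to 5.43 in nAVF, and 2573 and 8049.7 in #05 and #09. Alb was above 0 in every library, at 1833 and 5642 in OUT, and each of the 8 had a count in at least 1 sham library. Their part in the result was not tested. Within OUT, all 8 markers were higher in #09 than in #05, by a ratio of 1.05 for Fabp1 to 4.78 for Fgb with a median of 3.10, and 13 of the 14 plasma serpins were too, with a median of 2.83 and the highest ratio, 7.35, for Serpina7. Serpina1e ran the other way at a ratio of 0.251. The 8 serpins of many tissues had ratios of 0.645 to 1.92. These ratios compare 2 libraries and have no replicate check.

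**Figure D4:**
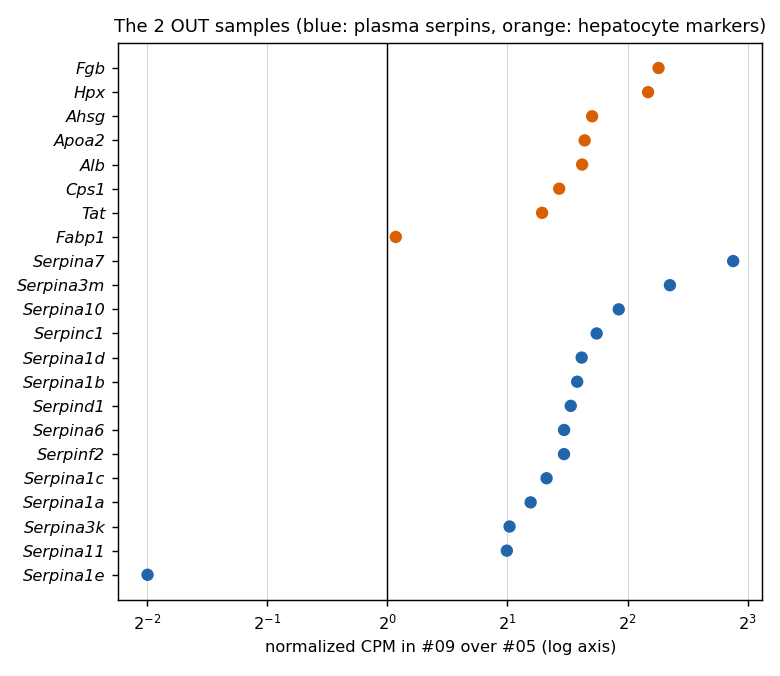
Points are the normalized CPM in #09 over that in #05 (log axis) for 14 plasma serpins (blue) and 8 hepatocyte markers (orange). Serpina1e alone lies below 1, at 0.251, and the others run from 1.05 for Fabp1 to 7.35 for Serpina7.

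23 of the 24 clade A genes lie in 1 cluster of 800.0 kb on chromosome 12 (103580578 to 104380597), and Serpina7 lies on chromosome X. The genes called in OUT against nAVF fell in stretches of the cluster, with Serpina10 and Serpina6 at one end, the 5 Serpina1 genes and Serpina11 further on, and Serpina3k near the other end. Between Serpina6 and Serpina1b, Serpina16 had no count in any library and Serpina1f reached no more than 0.0421 normalized CPM. Serpina3n, the last gene, was at a mean of 204 in OUT and 215 in nAVF.

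**Figure D5:**
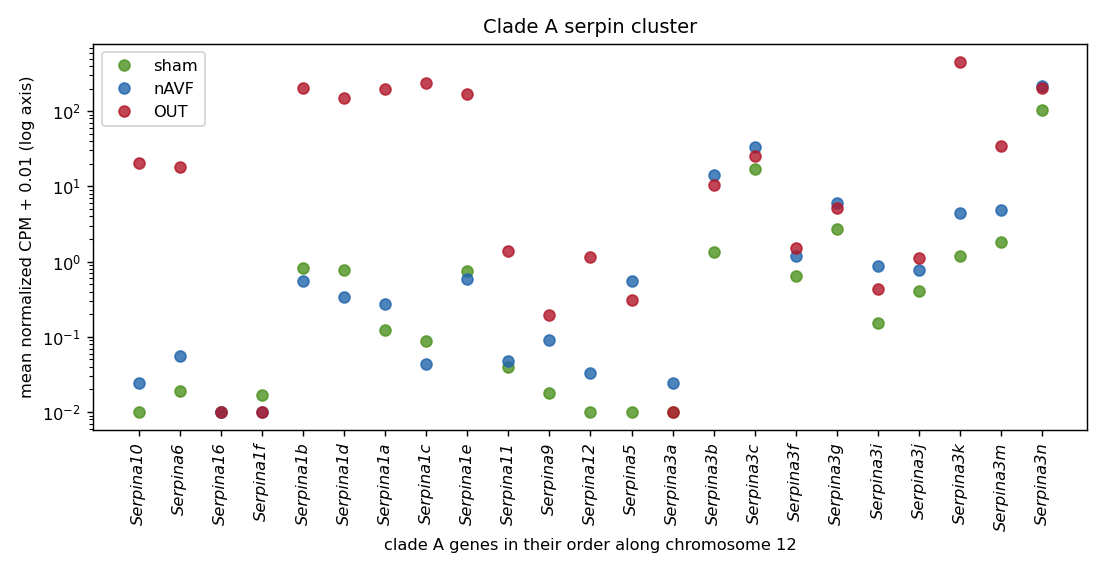
Points are mean normalized CPM plus 0.01 (log axis) of the 23 clade A genes of chromosome 12, in their order along it, over 6 sham (green), 4 nAVF (blue) and 2 OUT (red) libraries. OUT lies well above the others at Serpina10 and Serpina6, from Serpina1b to Serpina11, and at Serpina12, Serpina3k and Serpina3m. Its mean is 457 at Serpina3k, and it lies close to nAVF at Serpina3n.

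The Serpina3 genes, copies of an inhibitor whose human counterpart is a single antichymotrypsin, also varied within nAVF. Serpina3b was at 53.4 normalized CPM in #04, 18.8 in #05, and no more than 3.10 in the other 10 libraries (nAVF against sham, log2 fold change 3.42 ± 1.19, adjusted p = 0.120). Serpina3c was at 60.6, 28.5, 11.2 and 32.9 in nAVF and 10.1 to 27.5 in sham (0.99 ± 0.37, adjusted p = 0.149). The 10 Serpina3 genes summed to 422 in #04 and 385 in #11, beside 88.0 to 195 in sham and 140.5 and 175 in #07 and #06. Serpina3f, Serpina3i and Serpina3j stayed at or under 2.43 in every library and passed no quasi-likelihood test between sham, nAVF and OUT, while DESeq2 and the exact test called Serpina3i in nAVF against sham.

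The remaining members were low. Of the 31 serpins with neither a call in these comparisons nor a group mean of 10, 19 had no more than 3 counts in any library, 14 of them in clade B, and the highest value of the 31 was 8.39 normalized CPM, for Serpinb2 in sham sample #18. Serpinb2 was at 0.369 to 8.39 in sham and 0.679 to 4.41 in nAVF (log2 fold change -0.01 ± 0.78), and was named after its values were seen. Serpinb6c had 1.29 to 3.72 in sham and 2.55 to 4.43 in nAVF (0.66 ± 0.31, adjusted p = 0.240), and Serpinb10 0.517 to 2.91 and 0.307 to 1.10. Serpinb13, Serpinb3b, Serpinb6d, Serpinb6e, Serpinb9c to Serpinb9h, Serpina16 and Serpine3 had no count. Serpina1f, Serpina3a, Serpina9, Serpinb11, Serpinb12, Serpinb1b, Serpinb1c, Serpinb3a, Serpinb3c, Serpinb3d, Serpinb5 and Serpini2 were at or under 0.950 normalized CPM in every library.

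Sexes were compared within each operation, 3 against 3 mice. In AVF none of 43 tested serpins passed, with 5 at an unadjusted p value under 0.05, beside 0.0316% of all genes that passed. The exact test of edgeR called 2 and DESeq2 called 1. In sham 1 of 39 passed, beside 0.0818% of all genes. It was Serpinb7, or megsin, at 1.34, 2.17 and 3.50 normalized CPM in the male sham samples and 0, 0.0431 and 0 in the female ones, a single count in all females (adjusted p = 0.0478). The males and females did not overlap, and the gene was named after its values were seen. Serpinb7 in AVF was at 2.14, 2.17 and 2.81 in males and 0.205, 0.166 and 0.424 in females (log2 fold change -3.09 ± 0.50, adjusted p = 0.558). The sham call was lost with any one of #17, #18, #19, #22 and #23 left out, at adjusted p values of 0.117 to 0.295. Serpine2 was lower in female sham, at 31.5, 41.0 and 41.8 beside 67.9, 87.6 and 87.0 in males (-1.10 ± 0.155, adjusted p = 0.0969). DESeq2 and the exact test of edgeR both called Serpine2 in sham, and Serpina3b, Serpina3k, Serpina3m and Serpinb2 as well. No serpin passed the test of an interaction of sex and operation, with 4 at an unadjusted p value under 0.05, and 0% of the 22163 genes tested passed it.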

How the data were processed

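RNA of the IVC was sequenced as stranded poly(A) libraries, 1 for each of 12 mice. The authors trimmed the reads, mapped them to GRCm39 and deposited expected counts per gene, which spread reads shared by similar genes by likelihood. The submitters' processing notes name Trimmomatic 0.39, STAR 2.7.7a and RSEM 1.3.3. Gene names and positions came from a later GENCODE release of the same build, which named 54749 of the 55414 genes.

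Expected counts were rounded and tested on the whole table with the quasi-likelihood test of edgeR 4.0.16 (R 4.3.3) with TMM scaling and Benjamini-Hochberg adjustment over all genes tested, and called at an adjusted p value under 0.05. AVF against sham used genes above 1 CPM in 2 or more samples, and the other comparisons kept genes with more than 12 counts over the 12 samples. The alternatives were DESeq2 1.42.0, the exact test of edgeR, other scalings, filters and designs, and leaving out samples. The main fit of each comparison, but none of the alternatives, was tested on simulated data with 200 genes changed 4-fold. Serpins were named where they passed a test among AVF, nAVF, OUT and sham or had a group mean of at least 10 normalized CPM. Partner genes were named where they passed in AVF or nAVF against sham, at most the 3 of lowest p per list. Groups and sexes came from the labels, and OUT and nAVF from the study's text. The members and gene lists were chosen with earlier results of these data known. The results of 1 gene are not reported here.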

Additional observations from a re-analysis of the deposited data

Results flagged for a closer look

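Of 85 groups of 4 or 6 samples tested for a sample far from the others by Dixon's ratio, 22 had one. Chance gives about 1 in 20 groups, or 4.25, if groups are independent and normally distributed. These were not, as the AVF groups hold #05 and #09, set apart by expression, and contain the nAVF groups. The 22 are therefore a list to look at, and no conclusion is drawn from their number. Values are normalized CPM. Among the 6 AVF samples #09 stood above the rest for Serpina10 (32.4), Serpina1b (302), Serpina1d (228), Serpina3m (57.8), Serpina6 (27.0), Serpina7 (42.2), Serpinc1 (123), Serpind1 (53.3) and Serpinf2 (38.3). It did so too for Serpinb1a (30.6), Serpinb9 (136) and Serpinb9b (37.0). #05 stood above the rest for Serpina12 (1.73) and Serpina1e (268), and #04 for Serpina3b (53.4).

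Within nAVF, #04 was far above the others for Serpina3b (53.4), Serpina3k (14.8) and Serpinb9b (5.10), and #07 far below them for Serpinh1 (555). #06 was above them for Serpina1c (0.136) and Serpina6 (0.181), where the others had no count, so the ratio was fixed. In sham, #23 was high for Serpinb1a (23.5). Serpin pseudogenes were no members, and 2 of them had counts in AVF above sham: Serpina3h reached an expected count of 17.0 in #06, where the highest in sham was 4, and Serpina4-ps1 18 in #05, where sham had 0.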

How the results depend on the processing

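In AVF against sham, 11 serpins were higher and 0 lower with the replicate block, 4 and 0 without #05 and #09, and 0 lower at 2-fold. Leaving out single samples gave 5 to 20 higher and 0 to 1 lower. Without #05 and #09, and so with fewer samples, the log2 fold changes of Serpina1b, Serpina1d and Serpina1e were -0.60, -1.23 and -0.28. In nAVF against sham, DESeq2 called 8 higher and the exact test 10, and leaving out single samples gave 2 to 7 higher and 0 to 1 lower. In OUT against sham, 1 was lower by DESeq2, by the exact test and with the replicate block, and 0 to 1 with single samples left out. Between the sexes in AVF, DESeq2 called 1 and the exact test 2. In sham, each called 7, the filter of 1 CPM left 0, no filter gave 2, and leaving out single samples gave 0 to 3. The cause was not tested. Where an OUT sample was left out, the lone one was assumed to vary like the other group. Samples with the same number correlated at -0.133 to 0.251, with 3 of 6 pairs over 0.1, so the numbers were not taken to pair the mice. Of 949 values of 56 gene results under the alternatives in which the gene was tested, 819 kept their call, 127 lost it and 3 reversed. 3 more had no adjusted p value by DESeq2.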
